A study of Mus musculus with 6 samples.

Results

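The genes described here are Myc and 34 genes for proteins of the nucleolus that make ribosomes. They were taken by symbol from a list of 35 names, and all 35 were found among the 16108 genes of the deposited table. The libraries came from RAW264.7 cells, a mouse macrophage-like line transformed by Abelson murine leukaemia virus. In the 3 acoustics-on libraries, cells attached to a device were exposed to acoustics for 48 h at 18 V peak to peak and 5 kHz. In the 3 acoustics-off libraries, cells stayed on the same kind of device for 48 h with no acoustics. A petri-dish group named in the design was not analysed here. All libraries come from 1 cell line, and the labels do not say whether they were separate cultures, so every p-value reflects only how far these libraries differ, and part of that may be technical.

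Myc is a transcription factor that pairs with Max and binds the E-box, a short palindrome in DNA. Many of its known targets serve the making of ribosomes. RNA polymerase I transcribes the ribosomal RNA precursor in the nucleolus, small nucleolar ribonucleoproteins (snoRNPs) modify it, and assembly factors cut, fold and pack it into the small and the large subunit. In macrophages, Myc is known for its links to growth and to alternative activation.

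Values are FPKM, fragments scaled by transcript length and library size, as deposited by the authors. FPKM scales by gene length, so that levels of different genes can be set roughly beside each other. Trends with length remained in some libraries, as given below. Differences are acoustics-on minus acoustics-off as log2(FPKM + 1), where genes of low level show less than their full change. The test was limma with Benjamini-Hochberg adjustment over 11664 genes, with a threshold of 0.05. Of the 35 genes, 34 passed the filter of at least 0.5 FPKM in at least 3 libraries, and each of those had at least 1 FPKM in all libraries. The low values gave relative depths of 0.959 to 1.07. The authors' deposited table gave the 34 genes mean normalised counts between 388.6 for Myc and 48804 for Npm1, with a median of 2338.

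The libraries had macrophage transcripts. All 10 macrophage markers of the list were present, and their summed level was 20220.5 to 27131 FPKM in acoustics-on libraries and 28363 to 30587 FPKM in acoustics-off libraries, with no overlap. Most of each sum was the lysozyme gene Lyz2, which averaged 19379 ± 3494 FPKM with acoustics on and 24695 ± 1214 FPKM with acoustics off (SD, n = 3 each). Of the 10 markers 6 had all acoustics-on values below all acoustics-off values, where this held for 17.7% of all genes. The markers Spi1, Cd14, Fcgr1 and Cd53 had log2 differences of 0.06 to 0.29, with groups that did not overlap for Cd53. The smallest p-values went to Csf1r, Itgam and Mertk, with log2 differences of -0.85, -0.73 and -0.65 (limma, adjusted p = 0.096, 0.20 and 0.20). Of these markers 0 passed the test (limma; 3 at an unadjusted p under 0.05; 1, Csf1r, in the authors' deposited table). The shares over all genes for these 3 counts were 2.07%, 19.7% and 7.56%. Csf1r passed, lower, without acoustics-on replicate 1 (limma, adjusted p = 0.036) and did not pass with any other single library left out. It also passed with trends on length and GC content divided out and with library weights (limma, adjusted p = 0.048 and 0.011). With those weights Cd53 and Fcgr1 passed too, both higher. The 4 fibroblast markers summed to at most 1.86 FPKM in any library. Of 4 epithelial markers only 1 was present, Krt8, at most 0.119 FPKM. Of 4 lymphocyte markers only 1 was present, Cd79a, at most 0.0943 FPKM. The part of the macrophage markers' difference in the results below was not tested. In bulk RNA, fewer cells of a kind and less RNA per cell cannot be told apart.

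Myc was higher in all acoustics-on libraries than in any acoustics-off library, while the log2 differences of the other 33 genes tested lay between -0.39 and 0.48. Myc (chromosome 15, 61985391 to 61990374, GRCm38) had 8.41, 3.97 and 8.21 FPKM in acoustics-on replicates 1, 2 and 3, against 1.95, 2.76 and 2.53 FPKM in acoustics-off replicates 1, 2 and 3. The groups did not overlap, and acoustics-on replicate 2 stood nearest to the acoustics-off libraries. The means were 6.86 ± 2.51 FPKM with acoustics on and 2.41 ± 0.41 FPKM with acoustics off (SD, n = 3 each), a ratio of 2.84. The log2 difference was 1.15 with a 95% interval of 0.52 to 1.78, but Myc did not pass the threshold over all genes (limma, adjusted p = 0.089). Without acoustics-on replicate 2 the difference was 1.45 and passed (limma, adjusted p = 0.015). Leaving out the acoustics-on library nearest to the acoustics-off libraries widens the difference by construction. Myc did not pass with any other single library left out. In the authors' deposited table, made with DESeq2, Myc had a log2 fold change of 1.51 (SE 0.33) and passed (adjusted p = 0.00029 there).

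Of the 34 genes tested, 0 passed in either direction (limma), where 2.07% of all genes did. At an unadjusted p under 0.05 there were 2, Myc and Nop56, where 19.7% of all genes were under it. Of the 35 genes, 1 passed in the authors' deposited table, Myc, where 7.56% of all genes with an adjusted p did. All 3 acoustics-on values were above all acoustics-off values for 4 genes, Myc, Nop56, Rrp12 and Nop2, where this held for 17.1% of all genes. All 3 were below for 1 gene, Noc2l, where this held for 17.7% of all genes. The median log2 difference was 0.04 over the 34 genes and -0.03 over all genes tested. These shares are a description of the list and no test of it.

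The 95% intervals bound most of these differences. They lay within 1 log2 unit of 0 for 31 of the 34 genes, where this held for 79.8% of all genes. They lay within 0.5 for 14 genes, where this held for 27.3% of all genes. The exceptions at 1 log2 unit were Myc, Nhp2 and Heatr1. A p that misses the threshold does not show that a gene was at the same level in both groups.

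**Figure D1:**
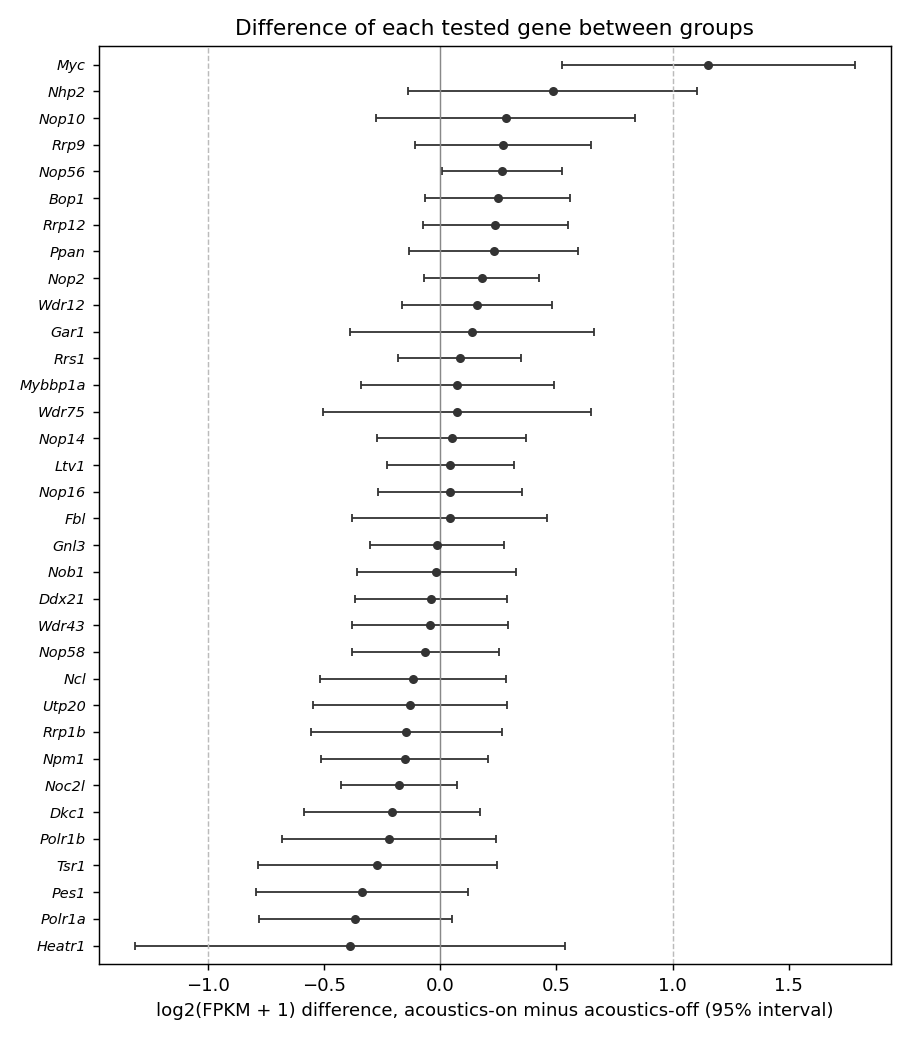
Difference between acoustics-on and acoustics-off libraries on the log2(FPKM + 1) scale (horizontal axis) for the 34 tested genes, with points for the limma estimate and bars for its 95% interval. Dashed lines stand at -1 and 1. Myc lies at 1.15, and the other genes lie between -0.39 and 0.48.

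The genes around Myc were read next, because other family members share its partner and its binding site. Mycn, the closely related family member named here after its values were seen, was far more abundant than Myc. It had 271, 304 and 237 FPKM in acoustics-on replicates 1, 2 and 3, against 364, 366 and 348 FPKM in acoustics-off replicates 1, 2 and 3. The groups did not overlap, with acoustics-on lower (log2 difference -0.42, 95% interval -0.76 to -0.07), but the difference did not pass (limma, adjusted p = 0.20). The level of Mycn was 39.4 times that of Myc with acoustics on and 149 times that of Myc with acoustics off, by the group means. The library with the lowest acoustics-on Myc, replicate 2, had the highest acoustics-on Mycn. Among the acoustics-off libraries, replicate 2 had both the highest Myc and the highest Mycn. A relation between the genes was not tested. A further family member, Mycl, was at most 0.112 FPKM in any library.

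Of 13 genes around Myc, which are Mycn, Mycl and partners and antagonists of the family, 11 were tested and 0 passed (limma; 4 at an unadjusted p under 0.05; 2, Mlx and Mxi1, in the authors' deposited table). Over all genes the shares for these counts were 2.07%, 19.7% and 7.56%. The median log2 difference of the 11 genes was -0.42, the value of Mycn itself, which is also 1 of the 4. Mlx, a partner of the glucose-sensing relatives of Myc, averaged 27.96 ± 1.71 FPKM with acoustics on and 19.95 ± 0.43 FPKM with acoustics off (SD, n = 3 each; limma, adjusted p = 0.094). Mxi1 and Mxd4 encode antagonists that compete with Myc for Max. Mxi1 averaged 45.1 ± 2.20 FPKM with acoustics on and 61.8 ± 1.60 FPKM with acoustics off (SD, n = 3 each; limma, adjusted p = 0.098). Mxd4 averaged 26.1 ± 4.34 FPKM with acoustics on and 36.6 ± 1.11 FPKM with acoustics off (SD, n = 3 each; limma, adjusted p = 0.15). Max itself had 55.3, 39.6 and 44.2 FPKM with acoustics on, against 41.0, 39.5 and 40.01 FPKM with acoustics off, and its groups overlapped. When acoustics-on replicate 1 was left out, Mlx and Mxi1 passed (limma, adjusted p = 0.030 and 0.027). With trends on length and GC content divided out, Mlx passed (limma, adjusted p = 0.044).

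**Figure D2:**
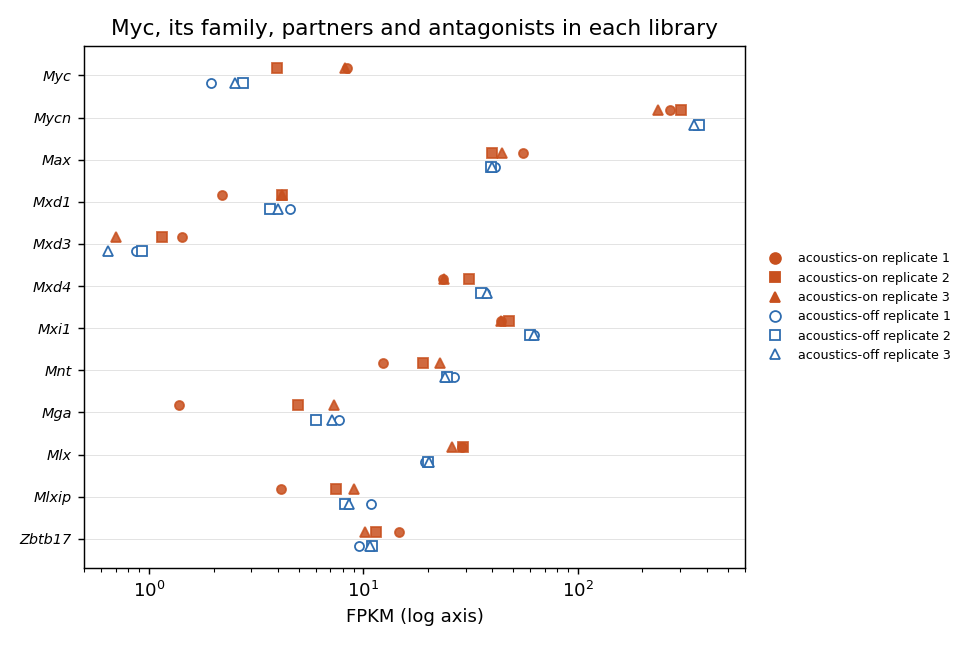
FPKM (horizontal log axis) of Myc, Mycn and the 10 tested genes of partners and antagonists in each library, with filled symbols for acoustics-on and open symbols for acoustics-off libraries. Myc lies at 3.97 to 8.41 FPKM with acoustics on and at 1.95 to 2.76 with acoustics off, and Mycn lies at 237 to 304 FPKM with acoustics on and at 348 to 366 with acoustics off.

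Among 38 known Myc targets outside ribosome biogenesis, 37 were tested and 1 passed, Hk2, which was lower (limma; 2.07% of all genes passed). At an unadjusted p under 0.05 there were 11, where 19.7% of all genes were under it. All acoustics-on values lay above all acoustics-off values for 14 targets, where this held for 17.1% of all genes. They lay below for 1, where this held for 17.7% of all genes. The hexokinase gene Hk2 averaged 15.001 ± 1.02 FPKM with acoustics on and 24.5 ± 0.62 FPKM with acoustics off (SD, n = 3 each), a log2 difference of -0.68 (limma, adjusted p = 0.035). With 1 library left out it passed only when that was acoustics-on replicate 1 (limma, adjusted p = 0.0105; 0.060 to 0.24 for the others). It did not pass with no filter on low values, with trends on length and GC content divided out or with the length used by the authors divided out (limma, adjusted p = 0.051, 0.11 and 0.20). With either length correction and all libraries 3 targets passed instead, Apex1, Ccnd1 and Cdkn1a, all higher. Without acoustics-on replicate 1 Hk2 passed with both length corrections (limma, adjusted p = 0.0071 and 0.0088). It also passed with library weights (limma, adjusted p = 0.00086). Odc1, which encodes the enzyme that starts polyamine synthesis, had 167, 74.7 and 154 FPKM in acoustics-on replicates 1, 2 and 3, against 59.1, 58.1 and 55.98 FPKM in acoustics-off replicates 1, 2 and 3. Like Myc, it was nearest to the acoustics-off libraries in acoustics-on replicate 2, and it did not pass (log2 difference 1.10; limma, adjusted p = 0.12). Without that library it passed, with a difference of 1.46 (limma, adjusted p = 0.0065). Odc1 did not pass with any other library left out, with library weights or with either length correction. Apex1, a DNA repair endonuclease gene, averaged 101.9 ± 26.2 FPKM with acoustics on and 62.1 ± 2.80 FPKM with acoustics off (SD, n = 3 each; limma, adjusted p = 0.13), and it passed without acoustics-on replicate 1 (limma, adjusted p = 0.022). Of these targets, 5 passed in the authors' deposited table, 4 higher (Odc1, Apex1, Eif4ebp1 and Cdkn1a) and 1 lower (Hk2). There, 7.56% of all genes with an adjusted p passed. The median log2 difference of the list was 0.16.

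The E-box was looked up in the promoters, since it is the site that Myc and Max bind. The letters searched were CACGTG, which read the same on both strands, in windows from 250 bases before to 50 bases after each start site (RefSeq, GRCm38.p6). A promoter was found for 29 of the 35 genes, and 7 of the 29 (24.1%) held the motif. It was held by 12.2% of the 8768 tested genes with a promoter in that table, and by 7.15% of all 32851 promoters. The 7 stretches of 30 bases are shown because they hold the motif, in capitals, read along the strand of the gene:
Mybbp1a: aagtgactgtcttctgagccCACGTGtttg
Utp20: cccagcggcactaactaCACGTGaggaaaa
Wdr43: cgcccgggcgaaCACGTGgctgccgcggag
Tsr1: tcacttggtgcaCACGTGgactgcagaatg
Ltv1: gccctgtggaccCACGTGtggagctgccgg
Nop2: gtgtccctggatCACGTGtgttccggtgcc
Pes1: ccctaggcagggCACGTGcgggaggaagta

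In 6 of the 7 the motif lay in the first 50 transcribed bases, starting, from the RefSeq start site, at base 3 for Pes1 (chr11:3963965-3963994, + strand), 18 for Wdr43 (chr17:71616220-71616249, + strand) and 25 for Tsr1 (chr11:74898092-74898121, + strand). It started at base 29 for Ltv1 (chr10:13193092-13193121, - strand), 38 for Utp20 (chr10:88826765-88826794, - strand) and 41 for Mybbp1a (chr11:72441347-72441376, + strand). In Nop2 (chr6:125131811-125131840, + strand) it started 60 bases before the start site. The log2 differences of these 7 genes lay between -0.34 (Pes1) and 0.18 (Nop2), with a median of -0.04. The other 21 tested genes with a promoter had a median of -0.02 and a range of -0.39 to 0.48. A match of letters is a description, and no binding was measured here.

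Of the 5 tested genes for nucleolar proteins with several roles 0 passed, and Npm1 and Ncl were among the 4 genes above 100 FPKM. Npm1, which encodes the chaperone nucleophosmin, had 1103, 942 and 972 FPKM in acoustics-on replicates 1, 2 and 3, against 1158, 1072 and 1120.2 FPKM in acoustics-off replicates 1, 2 and 3. It was the lowest-ranking of this group by difference (log2 difference -0.15, 95% interval -0.51 to 0.21), and its groups overlapped. Reads shared with its processed pseudogenes could affect its level. Ncl, which encodes the RNA-binding protein nucleolin, averaged 196 ± 37.6 FPKM with acoustics on and 211 ± 11.7 FPKM with acoustics off (SD, n = 3 each). Mybbp1a, whose protein restrains RNA polymerase I transcription, had 69.1, 43.9 and 53.6 FPKM with acoustics on, against 51.3, 50.1 and 54.1 FPKM with acoustics off. Its acoustics-on values lay on both sides of the acoustics-off range (log2 difference 0.07, 95% interval -0.34 to 0.49). The nucleostemin gene Gnl3 and the RNA helicase gene Ddx21 had differences of -0.02 and -0.04. Nolc1, which encodes a chaperone of snoRNPs, was below the filter. It was listed at 0, 0.031 and 0.13 FPKM in acoustics-on replicates 1, 2 and 3, and at 0.086, 0 and 0.027 FPKM in acoustics-off replicates 1, 2 and 3, with a mean normalised count of 7.10 in the authors' deposited table. Such values are unusual for a growing cell line, and the gene models the authors counted are not given here, so they are not read as its level of expression.

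Polr1a and Polr1b encode the 2 large subunits of the catalytic core of RNA polymerase I, and neither passed the test. Polr1a had 7.52, 7.10 and 11.1 FPKM in acoustics-on replicates 1, 2 and 3, against 11.2, 11.4 and 10.8 FPKM in acoustics-off replicates 1, 2 and 3. Polr1b had 4.07, 4.60 and 6.53 FPKM with acoustics on, against 7.24, 5.56 and 5.26 FPKM with acoustics off. For both, acoustics-on replicates 1 and 2 lay below all acoustics-off libraries and replicate 3 lay within their range. The log2 differences were -0.37 for Polr1a (limma, adjusted p = 0.29) and -0.22 for Polr1b (limma, adjusted p = 0.52). With trends on transcript length and GC content divided out, the difference of Polr1a was 0.02, and with library weights it was -0.48 and passed (limma, adjusted p = 0.026). Of 13 other polymerase I genes tested, subunits and initiation factors, 0 passed (limma; 2 at an unadjusted p under 0.05, against 19.7% of all genes; 0 in the authors' deposited table). The subunit gene Polr1e averaged 12.7 ± 0.691 FPKM with acoustics on and 10.2 ± 0.626 FPKM with acoustics off (SD, n = 3 each; limma, adjusted p = 0.25). Ttf1, the gene of the termination factor, averaged 3.51 ± 0.754 FPKM with acoustics on and 4.86 ± 0.375 FPKM with acoustics off (SD, n = 3 each; limma, adjusted p = 0.25). Ubtf, whose protein binds the ribosomal DNA promoter, averaged 30.7 ± 1.10 FPKM with acoustics on and 34.7 ± 1.006 FPKM with acoustics off (SD, n = 3 each; limma, adjusted p = 0.38).

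Box C/D snoRNPs methylate the precursor, and 0 of their 3 genes passed. Nop56, a scaffold of this particle, had 80.2, 76.1 and 78.5 FPKM in acoustics-on replicates 1, 2 and 3, against 62.6, 66.9 and 65.3 FPKM in acoustics-off replicates 1, 2 and 3. Its groups did not overlap and its spread was small in both, with a ratio of means of 1.21 (log2 difference 0.27, 95% interval 0.01 to 0.52; limma, adjusted p = 0.24). Its partner Nop58 had 47.8, 36.4 and 39.5 FPKM with acoustics on, against 42.9, 42.3 and 43.4 FPKM with acoustics off. The methyltransferase gene Fbl averaged 166 ± 38.0 FPKM with acoustics on and 159 ± 3.27 FPKM with acoustics off (SD, n = 3 each). Both Nop58 and Fbl had 1 acoustics-on library above and 2 below all acoustics-off libraries.

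Box H/ACA snoRNPs convert uridines to pseudouridine, and 0 of their 4 genes passed. Nhp2, which encodes a small RNA-binding subunit, had 271, 158 and 131 FPKM in acoustics-on replicates 1, 2 and 3, against 125, 135 and 121 FPKM in acoustics-off replicates 1, 2 and 3. The difference was 0.48 with all libraries (95% interval -0.14 to 1.11) and 0.18 without acoustics-on replicate 1. Dkc1, the gene of the pseudouridine synthase itself, had 20.5, 25.95 and 30.1 FPKM with acoustics on, against 30.4, 27.1 and 30.5 FPKM with acoustics off (log2 difference -0.21). In acoustics-on replicate 1 the particle's genes went apart, with Nhp2, Nop10 (79.8 FPKM) and Gar1 (66.8 FPKM) at their highest of all libraries and Dkc1 at its lowest. In acoustics-on replicate 3 Nop10 (41.7 FPKM) and Gar1 (38.7 FPKM) were instead at their lowest. Gar1, Nhp2 and Nop10 were the shortest of the 34 genes by the length measure given below. In acoustics-on replicate 1 that measure had a rank correlation of -0.55 with the deviation over all genes. The part of length in the split of these genes was not tested.

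**Figure D3:**
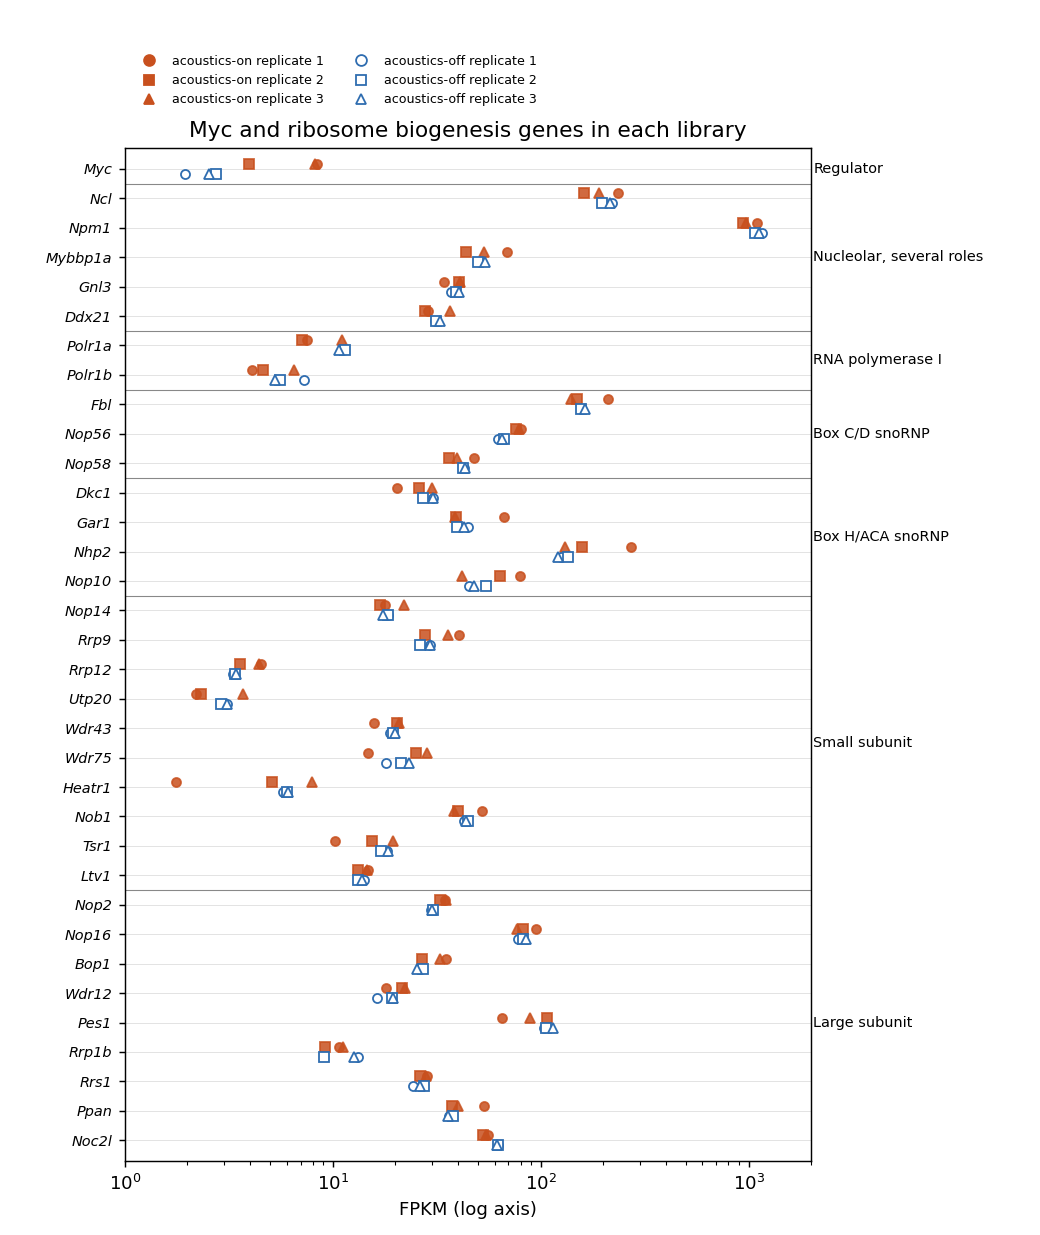
FPKM (horizontal log axis) of the 34 tested genes in each library, ordered by role, with filled symbols for acoustics-on and open symbols for acoustics-off libraries and a shape for each replicate. Npm1 stands highest, at 942 to 1103 FPKM with acoustics on and 1072 to 1158 with acoustics off, and acoustics-on replicate 1 often stands outside the other libraries. Nolc1 is left out, since it is listed at 0 in some libraries.

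Among the 10 small-subunit factors the median log2 difference was 0.01. Rrp9, a protein of the U3 particle that starts cleavage of the precursor, had 40.6, 27.8 and 35.8 FPKM in acoustics-on replicates 1, 2 and 3, against 29.2, 26.4 and 29.4 FPKM in acoustics-off replicates 1, 2 and 3 (log2 difference 0.27). Heatr1, a large protein of the early small-subunit particle, had 1.76, 5.12 and 7.91 FPKM with acoustics on, against 5.76, 6.04 and 6.11 FPKM with acoustics off. Its acoustics-on libraries spread to both sides of a narrow acoustics-off range, and its interval was the widest of the 34 genes (log2 difference -0.39, 95% interval -1.32 to 0.54). Tsr1, a late assembly factor, also ran from 10.3 FPKM in acoustics-on replicate 1 to 19.5 FPKM in acoustics-on replicate 3, against 17.05 to 18.5 FPKM with acoustics off. Rrp12, an export factor, had 4.52, 3.57 and 4.44 FPKM with acoustics on, against 3.32, 3.39 and 3.41 FPKM with acoustics off, and its groups did not overlap (limma, adjusted p = 0.34). The endonuclease gene Nob1 and the assembly factor gene Ltv1 had differences of -0.02 and 0.04. Utp20, Wdr43, Wdr75 and Nop14 had differences between -0.13 and 0.07.

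Among the 9 large-subunit factors the median log2 difference was 0.08. Bop1, Wdr12 and Pes1 encode the subunits of a complex that is needed to process the large-subunit RNA. Bop1 had 35.04, 27.0 and 32.9 FPKM in acoustics-on replicates 1, 2 and 3, against 26.5, 27.3 and 25.4 FPKM in acoustics-off replicates 1, 2 and 3 (log2 difference 0.25). Pes1 had 65.0, 107 and 89.3 FPKM with acoustics on, against 104, 106 and 114 FPKM with acoustics off (log2 difference -0.34). Wdr12 lay between them at 0.16, so the complex's genes did not share a sign, although none of these differences passed (limma, adjusted p = 0.33 to 0.51). Nop2, an RNA methyltransferase gene, had 34.7, 32.8 and 35.03 FPKM with acoustics on, against 29.8, 30.3 and 30.1 FPKM with acoustics off. Noc2l had 55.9, 52.8 and 54.8 FPKM with acoustics on, against 62.0, 62.0 and 61.4 FPKM with acoustics off. For both the groups did not overlap, with log2 differences of 0.18 and -0.18 (limma, adjusted p = 0.36 for each). Nop16, Rrp1b, Rrs1 and Ppan had differences between -0.15 and 0.23, and their groups overlapped. Exons of Nop56, Dkc1, Nhp2, Rrp9, Heatr1, Tsr1, Bop1, Wdr12, Gnl3 and Rrp1b overlap those of a tested gene on the other strand, and the part of that in their levels was not tested.

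Other genes of the pathway were taken from 4 further lists. Of 132 other ribosome biogenesis genes tested, 0 passed (limma; 13 at an unadjusted p under 0.05; 3, Pop1, Senp3 and Nop53, in the authors' deposited table), and their median log2 difference was 0.08. For all genes the shares were 2.07%, 19.7% and 7.56%. Pop1, a subunit of the ribonucleases P and MRP, had 4.78, 3.145 and 3.28 FPKM in acoustics-on replicates 1, 2 and 3, against 1.63, 1.69 and 1.62 FPKM in acoustics-off replicates 1, 2 and 3 (log2 difference 0.82; limma, adjusted p = 0.058). Senp3, a SUMO protease gene of the nucleolus, averaged 78.1 ± 4.89 FPKM with acoustics on and 59.3 ± 2.54 FPKM with acoustics off (SD, n = 3 each; limma, adjusted p = 0.15). Nop53, a large-subunit assembly factor gene, averaged 343 ± 52.4 FPKM with acoustics on and 488 ± 15.4 FPKM with acoustics off (SD, n = 3 each; limma, adjusted p = 0.16). None of the 3 had overlapping groups. Without acoustics-on replicate 1 these 3 and Utp14a passed, Pop1 and Senp3 higher and Nop53 and Utp14a lower (limma, adjusted p = 0.017 to 0.047). The number of all genes that passed also changed with the library left out, as given below, so these passes are no result about the list.

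In the small-subunit list the smallest p-values went to Utp14a, Pno1 and Dcaf13. Utp14a averaged 11.4 ± 0.94 FPKM with acoustics on and 15.3 ± 0.49 FPKM with acoustics off (SD, n = 3 each; limma, adjusted p = 0.16). Pno1 averaged 24.1 ± 3.42 FPKM with acoustics on and 17.7 ± 0.49 FPKM with acoustics off (SD, n = 3 each; limma, adjusted p = 0.18). Dcaf13 averaged 46.2 ± 7.14 FPKM with acoustics on and 34.1 ± 1.75 FPKM with acoustics off (SD, n = 3 each; limma, adjusted p = 0.19). All of these are components of early or late small-subunit particles. Among the exosome and related nuclease genes, which trim the precursor, they were Exosc3, Mphosph6 and Exosc9. Each of those had all acoustics-on values above all acoustics-off values, with log2 differences of 0.49, 0.32 and 0.40 (limma, adjusted p = 0.22, 0.29 and 0.30).

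The acoustics-on libraries differed from each other more than the acoustics-off libraries did. The SD over acoustics-on libraries was above that over acoustics-off libraries for 31 of the 34 genes, where this held for 88.9% of all genes tested. Acoustics-on replicate 1 had the highest of the 6 values for 17 genes and the lowest for 9. Acoustics-on replicate 2 had the highest value for 0 genes and the lowest for 9, and replicate 3 the highest for 10 and the lowest for 5. How often each library was highest or lowest over all genes was not counted, so these counts cannot be called particular to the list. Against the acoustics-off mean, the median over the 34 genes was 0.11, -0.07 and 0.09 on the log2 scale in acoustics-on replicates 1, 2 and 3. Over all genes tested the medians were -0.04, -0.001 and -0.006 in the same libraries.

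The deviation of a gene in a library was set against its length and its GC content. Normalised reads per FPKM, from the authors' deposited values, is proportional to the length they used and ran from 28.5 for Gar1 to 390.4 for Utp20. Across the 34 genes its rank correlation with the deviation from the acoustics-off mean was -0.52, -0.45 and 0.36 in the acoustics-on libraries 1, 2 and 3. Across all 11664 genes tested it was -0.55, -0.40 and 0.07 in the acoustics-on libraries and 0.23, -0.30 and 0.05 in the acoustics-off libraries 1, 2 and 3. With GC content the correlation across the 34 genes was 0.52, 0.13 and 0.13 in the acoustics-on libraries, so in replicate 1 it was as large as that with length. The points of each library share that library, and genes are not independent replicates. In acoustics-on replicate 1 the 11 shortest genes, among them Gar1, Nhp2, Nop10 and Fbl, had a median deviation of 0.30, and the 11 longest, among them Heatr1, Utp20 and Polr1a, had -0.29. The same genes had -0.09 and -0.24 in acoustics-on replicate 2, and -0.11 and 0.11 in acoustics-on replicate 3. With the length trend of all genes divided out of each library, the correlation across the 34 genes was 0.33, 0.14 and 0.31. Myc, of middling length, kept a difference of 1.13 with that correction and did not pass (limma, adjusted p = 0.057).

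**Figure D4:**
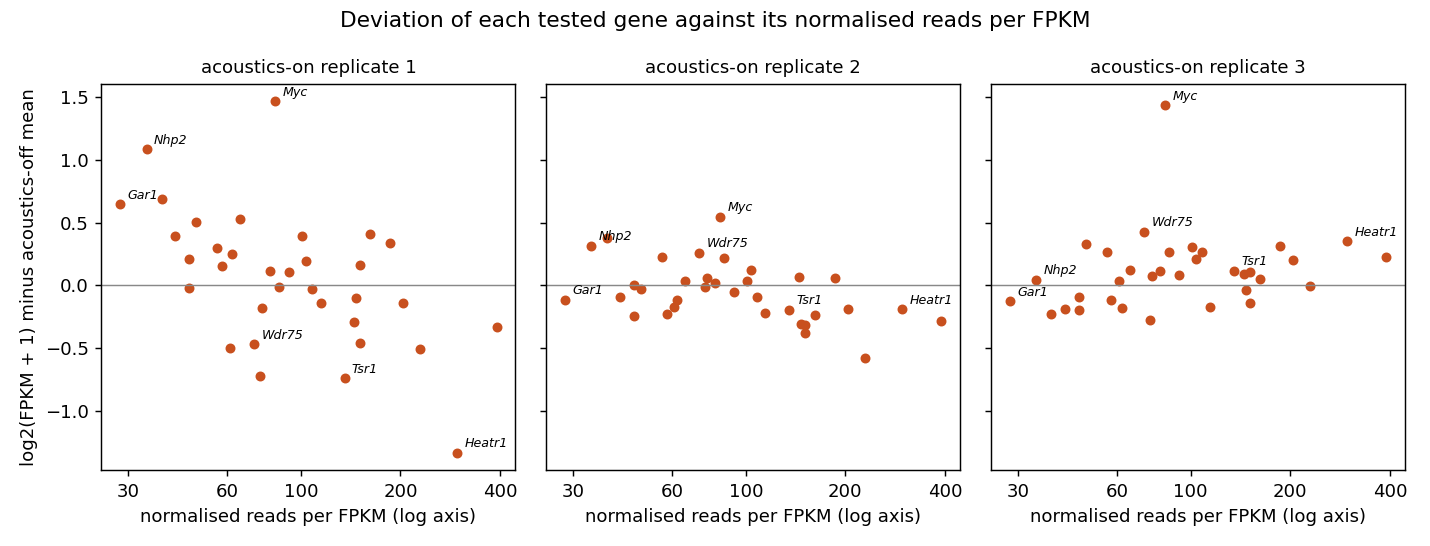
Deviation of each of the 34 tested genes from its acoustics-off mean on the log2(FPKM + 1) scale (vertical axis) against normalised reads per FPKM (horizontal log axis), which is proportional to gene length, in each acoustics-on library. In replicate 1 Nhp2 stands high among the short genes and Heatr1 low among the long ones, while in replicate 3 Heatr1 stands above 0.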

How the data were processed

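RNA-seq was made from 3 acoustics-on and 3 acoustics-off libraries. Build GRCm38 is named in the submitters' processing notes, which also list DESeq2 1.38.2, Salmon 1.4.0, STAR 2.7.11 and Trim Galore 0.6.8 without roles. Whether strand was used is not given either, so reads of antisense genes cannot be told apart for the 16 members with exons that overlap such a gene. The labels' protocols name an rRNA depletion kit, while the molecule field says polyA RNA.

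The authors deposited FPKM per gene and library. Their comparison table was deposited with a mean normalised count (a signal over all libraries), log2 fold changes, a test score and p-values, of which 1586 adjusted values are missing and stayed missing. No counts were given, so limma on log2(FPKM + 1) replaced a count test. Multiplying FPKM by mean normalised count over mean FPKM put 56.4% to 66.8% of values between 1.5 and 15, at the best step, within 0.05 of a whole read, so relative depth was read but reads were not recovered.

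Genes with at least 0.5 FPKM in at least 3 libraries were fitted with limma 3.58.1 in R 4.3.3 (trended, robust prior), and the fit was tested on simulated data. The members and all lists were chosen with earlier results of these data known. By rule, values per library are given for Myc and for the largest and the smallest difference in each role, and the 3 genes of smallest p in each list are named. Other genes with values were chosen after their values were seen. Positions are from GENCODE M21 (GRCm38). Alternatives changed the pseudocount, filter, scaling, prior, library weights, a replicate block, length corrections (loess, span 0.5) and each library left out.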

Additional observations from a re-analysis of the deposited data

How the results depend on the processing

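Over 19 alternatives the median log2 difference of the 34 genes stayed between -0.05 and 0.05, and that of Myc between 0.71 and 1.45 (limma, adjusted p = 0.015 to 0.37). Myc passed in 2 of them, with library weights (0.71, adjusted p = 0.034) and without acoustics-on replicate 2 (1.45, adjusted p = 0.015). With a library left out its difference was 0.99 to 1.45. The number of these genes called higher was 0 to 1, and called lower 0, with a library left out. With library weights 1 was higher (Myc) and 1 lower (Polr1a). These weights were set gene by gene after seeing that the default form did not converge. Of all genes, 242 (175 higher, 67 lower) passed, and 17 to 855 with a library left out. There were 150 with no filter, 152 with at least 1 FPKM in all libraries, 1882 with library weights, and 748 (384 higher, 364 lower) and 1365 with the length and GC correction, the last without acoustics-on replicate 1. With a correction for the length used by the authors, added after seeing the data, there were 741 and 1366 in the same 2 forms. Of the 132 other ribosome biogenesis genes, 0 to 4 passed with a library left out, 1 with quantile normalization, 7 with library weights, 2 and 7 with the length and GC correction, and 2 and 7 with the correction for the length used by the authors; these counts too were added after seeing the data. Of the 37 Myc targets outside ribosome biogenesis, 7 were called higher and 2 lower with library weights. With either length correction 3 were called higher and 0 lower, also added after seeing the data. Of all 11664 genes tested, 1882 passed with library weights, and 748 and 741 with the 2 length corrections and all libraries. The counts for both lists are to be read beside those numbers, and they are no test of the lists. With the length and GC correction 12 of the 34 genes took the other sign, none of them called.

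With the replicate number as a block 179 genes passed (133 higher, 46 lower), 0 of them members, and Myc and Hk2 each had an adjusted p of 0.12. The labels link the same-numbered libraries only by that number. Their deviations correlated at -0.07, -0.02 and -0.004 for replicates 1, 2 and 3. Pairs with different numbers correlated at -0.12 to 0.12. With 3 libraries in each group these values cannot show whether same-numbered libraries shared a batch. In both groups 3 libraries limit the precision, and Nolc1 was below the filter.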
